A study of Mus musculus with 2 samples.

Results

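The genes described here are Myoc, Angptl7, Cyp1b1, Optn, Tbk1, Tmco1, Cav1, Cav2, Abca1 and Gas7, which human genetics ties to glaucoma or to the pressure inside the eye. They were picked by symbol, and all 10 were found among the 33456 genes of the deposited matrices. They were measured in 2 droplet-based single-cell RNA libraries of the ciliary epithelium, the tissue that lines the ciliary body. The cells came from C57BL/6 mice at postnatal day 35, grouped here as wild type. The labels name no mutation and no drug. Library 1 was made from 3 pooled sets of eyes, and library 2 from 3 or 4, since its labels give both. The series holds 1 group and no treatment, so every comparison below is between kinds of cell within these libraries. With 1 pool per library, n = 2 throughout, and nothing is known of single animals.

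Glaucoma is a loss of retinal ganglion cells and of their axons in the optic nerve, and raised eye pressure is its main treatable risk factor. That pressure is set by the aqueous humour, which the bilayered ciliary epithelium secretes and which drains at the angle of the eye through the trabecular meshwork and Schlemm's canal. Dominant mutations of human MYOC cause open-angle glaucoma by way of a misfolded, retained protein, recessive mutations of CYP1B1 cause congenital glaucoma, and variants of OPTN and TBK1 are found in glaucoma at normal pressure. The other genes came from population studies: rare variants of ANGPTL7 go with lower pressure, and common variants near TMCO1, CAV1 and CAV2, ABCA1 and GAS7 go with pressure or disease.

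The libraries held 22510387 and 30683405 UMIs (unique molecular identifiers, 1 per captured RNA molecule), and 3865 and 5466 cells were kept, with a median of 4128 and 2968 UMIs. The libraries shared 11 cell barcodes. The labelled tissue was only part of what was caught. Pigmented epithelium had 136 and 220 cells and non-pigmented epithelium 145 and 147 cells, each carrying all of its marker genes (10 of 10 and 9 of 9). The markers of the pigmented class do not separate ciliary from iris epithelium, and it also carried 4 of 8 smooth or ciliary muscle markers, with Myh11 among its 10 leading genes. Stroma, retina, pigment cells of other origin, vessels, nerve and blood-borne cells made up the rest. Each class is named only from markers its cells carried, and a name means cells like that type. The cluster named Muller glia had as many non-pigmented epithelial as Muller markers among its 10 leading genes. Those genes also held the vascular endothelial markers Kdr and Flt1, though that list did not reach the 3 markers needed for a name. Over all markers the cluster carried 8 of 8 Muller, 5 of 9 non-pigmented epithelial and 3 of 4 astrocyte markers. The values of this cluster are read with that in mind. The cone class carried 9 of 9 rod markers beside 8 of 8 cone markers. Doublets were in effect kept, because the caller marked 3 and 0 cells. Fibroblast-like stroma fell into 4 clusters, named here by a leading gene. The Tnmd cluster (347 and 170 cells) carried 7 of 7 corneal or scleral and 3 of 7 trabecular meshwork markers. It also carried 3 of 8 smooth or ciliary muscle markers. The Tmem100 cluster (269 and 217 cells) carried 5 of 7 trabecular meshwork, 5 of 7 corneal or scleral and 3 of 8 pericyte markers. The Lypd1 cluster (379 and 193 cells) carried 4 of 7 trabecular meshwork and 3 of 8 smooth or ciliary muscle markers. Tagln and Myl9 were among its 10 leading genes. The Mmp3 cluster (293 and 61 cells) carried 6 of 7 corneal or scleral markers.

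Levels are UMIs of the gene per 1000000 UMIs of the class (CPM), given for library 1 and then library 2. As a measure of free RNA, the same level was taken in barcodes where globin made up at least 50% of UMIs (149 and 76 barcodes with 57516 and 48167 other UMIs). Myoc was at 34.8 and 104 CPM there (2 and 5 UMIs), Angptl7 had 0 UMIs in both, and the other genes had between 0 and 7 UMIs. At that depth a count of 0 allows up to 52.2 and 62.3 CPM. Over 18 classes and 10 genes, 41 of 180 pairs of a gene and a class were called higher than the other classes (22.8%) and 15 lower (8.33%), where 14.6% and 3.57% of all pairs tested were. A call is an edgeR quasi-likelihood adjusted p under 0.05 with a log2 fold change of at least 1 in size against the mean of the other classes on the log scale. That mean has no lower bound when another class has 0 UMIs in both libraries, so no lower call could be made for Angptl7, Cyp1b1, Cav1 and Cav2, which had 4, 3, 1 and 1 such classes. Their fitted fold changes also depend on the small count that edgeR adds, and are no bounds.

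By class, the number of the 10 genes called is given here with the share of all tested genes called the same way in brackets. Melanocytes had 7 higher (16.9% of all genes), pigmented epithelium 5 higher and 1 lower (17.3% and 2.61%), and stroma 5 higher and 1 lower (20.8% and 1.91%). Retinal pigment epithelium had 4 higher and 1 lower (18.6% and 5.28%) and endothelium 3 and 1 (15.8% and 1.3%). Muller glia had 3 higher (12.8%), mural cells 3 (11.3%) and non-pigmented epithelium 2 (17.0%). Rods had 2 higher and 2 lower (17.4% and 7.6%), cones 2 and 1 (17.2% and 7.76%), macrophages 2 and 1 (17.8% and 3.18%) and class II antigen-presenting cells 1 and 2 (15.7% and 3.36%). Schwann cells and T or NK cells had 1 higher each (5.36% and 8.85%), bipolar cells had 3 lower (6.86%), and amacrine cells and the mixed mast cell and neutrophil class had 1 lower each (7.94% and 3.06%). These counts, and the totals above, include calls that rest mostly on single cells, as described below. They are Myoc and Angptl7 in melanocytes, Myoc in T or NK cells and Angptl7 in class II antigen-presenting cells. Myoc in pigmented epithelium rests on a handful of cells.

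**Figure D1:**
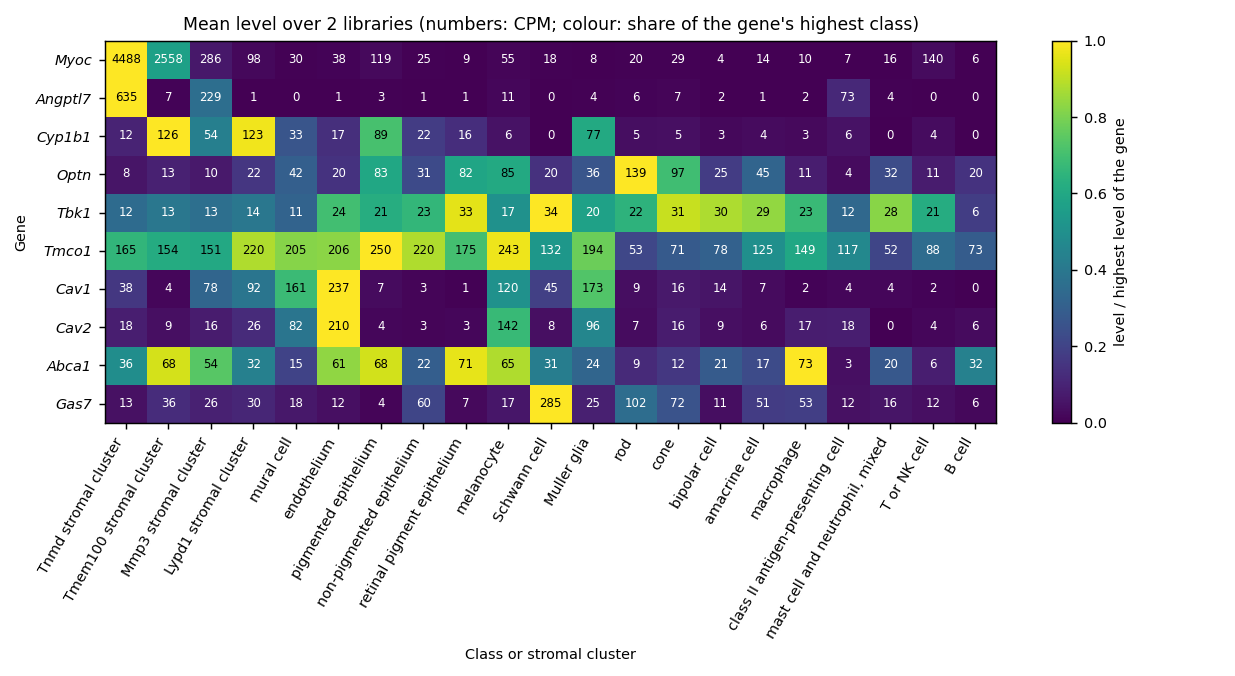
Mean level over both libraries of each gene (rows) in 17 classes and the 4 stromal clusters (columns); numbers are CPM, and colour is the level as a share of the gene's highest column. Myoc and Angptl7 peak in stromal clusters, Optn in rods, Cav1 and Cav2 in endothelium and Gas7 in Schwann cells, whereas the values of Myoc in T or NK cells and of Angptl7 in class II antigen-presenting cells come almost wholly from single cells.

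Upstream sequence is shown for Myoc and Angptl7, which both peaked in the Tnmd cluster described below, and for Cav1 and Cav2, neighbours on chromosome 6 that were both highest in endothelium. Each is the 250 bases before the annotated start in RefSeq (GRCm38.p6), 5′ to 3′ on the gene's strand. Capitals mark a TATA box (TATAAA) in Myoc and a GC box (GGGCGG or its reverse complement) in Cav1 and Cav2; Angptl7 held neither.
Myoc: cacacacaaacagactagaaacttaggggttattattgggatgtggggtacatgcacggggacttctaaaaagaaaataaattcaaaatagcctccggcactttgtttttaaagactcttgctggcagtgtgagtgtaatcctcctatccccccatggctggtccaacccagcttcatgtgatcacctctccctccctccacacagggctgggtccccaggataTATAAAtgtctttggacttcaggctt
Angptl7: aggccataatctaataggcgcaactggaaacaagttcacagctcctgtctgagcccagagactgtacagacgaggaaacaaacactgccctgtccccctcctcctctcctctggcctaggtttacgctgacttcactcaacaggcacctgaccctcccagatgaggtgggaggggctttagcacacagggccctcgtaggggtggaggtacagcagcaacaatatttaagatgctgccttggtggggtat
Cav1: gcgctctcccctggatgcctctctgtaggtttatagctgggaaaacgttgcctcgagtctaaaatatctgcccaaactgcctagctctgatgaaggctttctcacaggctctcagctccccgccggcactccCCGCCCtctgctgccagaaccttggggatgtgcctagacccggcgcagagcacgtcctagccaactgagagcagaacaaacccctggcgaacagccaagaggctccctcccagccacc
Cav2: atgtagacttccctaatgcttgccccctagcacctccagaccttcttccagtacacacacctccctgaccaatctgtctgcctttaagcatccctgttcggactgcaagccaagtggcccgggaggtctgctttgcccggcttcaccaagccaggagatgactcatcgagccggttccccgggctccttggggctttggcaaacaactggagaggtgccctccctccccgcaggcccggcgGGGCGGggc
The stretches lie at chr1:162638900-162639149 on the plus strand, chr4:148500463-148500712 on the minus strand, chr6:17306085-17306334 on the plus strand and chr6:17280935-17281184 on the plus strand. On both strands, TATAAA occurred in 12.4% and GGGCGG in 32.7% of the same window of 32851 RefSeq promoters. The TATA box of Myoc began 26 bases before the start, and the GC boxes of Cav1 and Cav2 118 and 9 bases before it. A second RefSeq entry of Cav1, whose stretch lies at chr6:17307390-17307639 and is not printed, held neither motif. The printed Cav1 stretch also held a TATAAA match 221 bases before the start. Such a match is a description of the letters and shows no binding. In the GENCODE annotation of GRCm38, Myoc spans chr1:162639155-162649693 and overlaps Myocos on the opposite strand, and Angptl7 (chr4:148495183-148500460) lies opposite Mtor. Cav2 (chr6:17281185-17289115) ends 17219 bases before Cav1 (chr6:17306335-17341452) with 0 genes between them, and both overlap the antisense gene Gm15581. Optn and Gas7 also overlap genes on the opposite strand. Whether counting used the strand is not given in the sources used here, so reads of such partners cannot be told apart.

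Myoc, which encodes the secreted olfactomedin-domain glycoprotein myocilin, was a gene of the stroma, and within it of some clusters far more than of others. Stroma held 96.0% and 94.8% of all Myoc UMIs in kept cells, with 33.3% and 11.7% of the cells. Its level was 1685 and 2521 CPM in stroma, against a median of 10.9 and 15.1 CPM over the other 17 classes. Myoc was higher in stroma by 6.91 ± 0.30 (log2 fold change ± SE, edgeR adjusted p = 9.88e-18). The other genes called higher there were Angptl7, Cyp1b1, Cav1 and Abca1, the last at 1.08, which fell short of the fold threshold under 4 alternatives (0.92 to 0.95).

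Among the stromal clusters Myoc was at 3499 and 5477 CPM in the Tnmd cluster and at 2589 and 2526 CPM in the Tmem100 cluster. It was at 229 and 344 CPM in the Mmp3 cluster and at 82.1 and 115 CPM in the Lypd1 cluster. Mural cells, a class that carried 8 of 8 pericyte and 8 of 8 smooth or ciliary muscle markers, had 28.3 and 30.8 CPM. The order was the same in both libraries, and no neighbours in it overlapped. Against the mean of the other stromal clusters, with mural cells counted among them, Myoc was higher in the Tnmd cluster by 4.64 ± 0.41 (edgeR adjusted p = 2.01e-10) and in the Tmem100 cluster by 3.44 ± 0.42 (adjusted p = 5.28e-07). In the Lypd1 cluster, which carried trabecular meshwork and smooth or ciliary muscle markers, Myoc was lower, at -2.63 ± 0.58 (edgeR adjusted p = 0.00257). In library 2 cells of that cluster, 61 of the 146 Myoc UMIs lay in 1 cell. In mural cells Myoc was also called lower (-4.93, edgeR adjusted p = 1.90e-05), from 9 and 4 UMIs, a call that was lost when cells were clustered more finely (1.17, not called) or under a mitochondrial limit of 15% (-0.29). The finer clustering also ended the call in the Lypd1 cluster (-1.67, edgeR adjusted p = 0.278).

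Over the 10 genes and the 5 stromal classes, 11 of 50 pairs were higher (22.0%) and 5 lower (10.0%), where 3.53% and 1.81% of all pairs tested were. In the Tnmd cluster 2 of 10 genes were higher and 1 lower, where 3.42% and 1.15% of tested genes were, and in the Tmem100 cluster 3 were higher and 2 lower, where 2.42% and 0.941% were. The counts were 2 and 1 in the Lypd1 cluster, with 3.54% and 2.15% of tested genes, and in the Mmp3 cluster 1 gene was higher, with 4.66%. Mural cells had 3 higher and 1 lower, with 3.59% and 2.47%. The Tnmd and Tmem100 clusters, both high in Myoc, differed in Angptl7, Cyp1b1 and Cav1, as described under each gene.

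**Figure D2:**
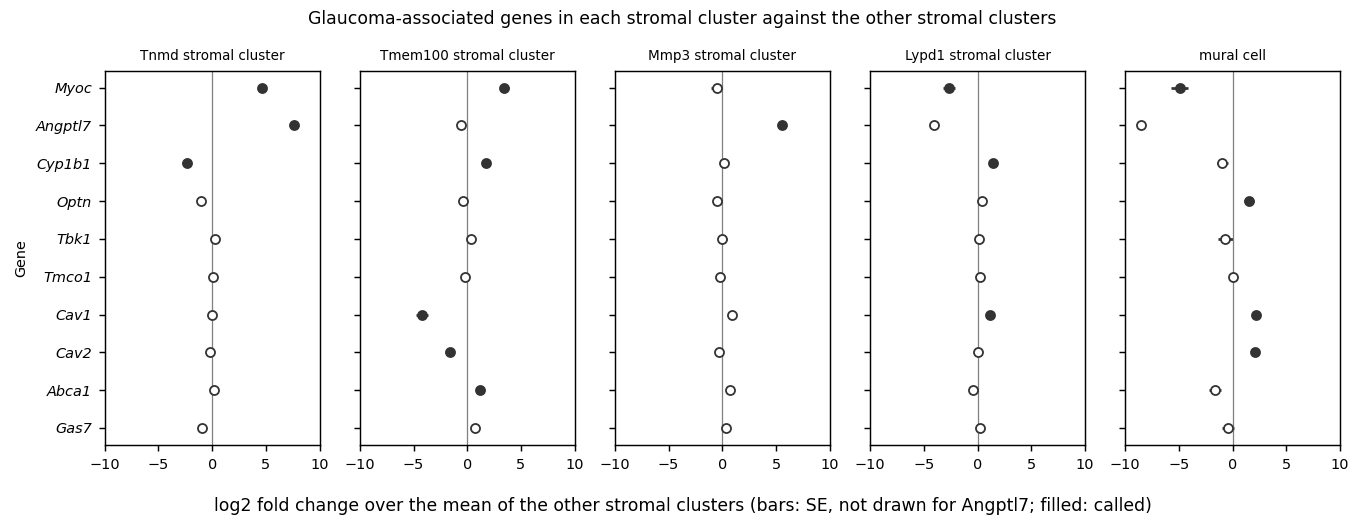
Log2 fold change of each gene in each stromal cluster and in mural cells against the mean of the others of these 5 (points; bars are standard errors, left out for Angptl7, which had 0 UMIs in mural cells; filled points were called). Myoc is higher in the Tnmd and Tmem100 clusters, Angptl7 in the Tnmd and Mmp3 clusters, and Cyp1b1 is lower in the Tnmd cluster and higher in the Tmem100 and Lypd1 clusters.

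Myoc was uneven from cell to cell even where it was highest. A Myoc UMI was found in 62.5% (95% Clopper-Pearson interval 57.2 to 67.6) and 72.4% (65.0 to 78.9) of Tnmd cluster cells, with a median of 7442 and 7270.5 UMIs per cell. The share was 3.51% and 3.03% in T or NK cells, a type that should lack the gene, with a median of 2431 and 3605 UMIs. Thinned to 1000 UMIs per cell, the share in the Tnmd cluster was 45.9% and 63.8% (344 and 163 cells deep enough), where a level spread evenly over its cells would give 97.0% and 99.6%. Per 10000 UMIs, Tnmd cluster cells had 0 Myoc UMIs at the 25th percentile, 3.98 and 27.0 at the median and 145 and 169 at the 95th percentile. The Tmem100 cluster was as uneven, with thinned shares of 43.0% and 40.4% where an even level would give 92.5% and 92.0%. Angptl7 was uneven too, at 21.2% and 23.3% of thinned Tnmd cluster cells where an even level would give 48.2% and 45.8%, and at 6.90% and 8.20% of thinned Mmp3 cluster cells where it would give 19.8% and 21.1%. Tmco1, Gas7, Cav1 and Optn lay nearer an even spread in the classes looked at. Tmco1 was found in 24.8% and 20.8% of thinned pigmented epithelial cells, where an even level would give 22.9% and 21.4%, and Gas7 in 29.3% and 30% of thinned Schwann cells, where it would give 25.5% and 24.2%. Cav1 was found in 23.4% and 14.5% of thinned endothelial cells, where it would give 22.8% and 19.4%. Optn in rods had thinned shares of 13.8% and 12.2%, where it would give 14.3% and 11.7%. These intervals and shares cover counting error only.

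**Figure D3:**
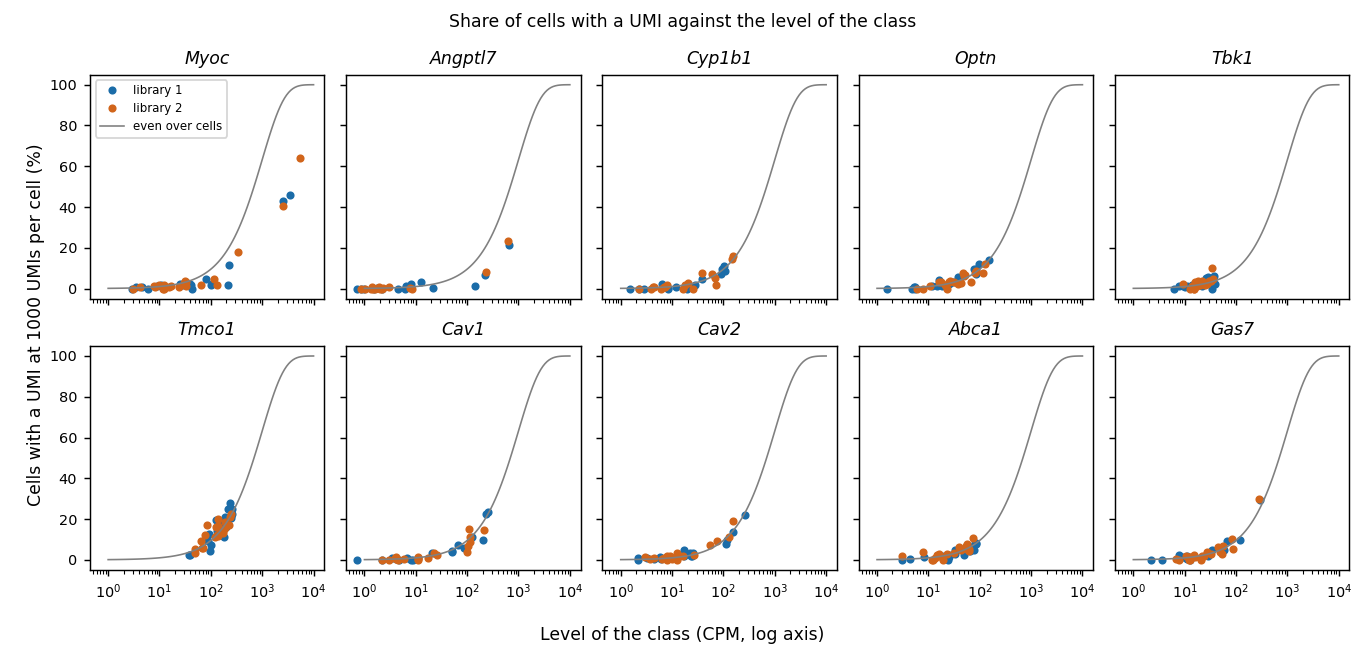
Share of cells with at least 1 UMI of the gene after thinning each cell to 1000 UMIs (vertical, percent) against the level of the class (horizontal, CPM, log axis), 1 point per class or stromal cluster and library; the grey curve is the share if every cell of a class had the same level. Myoc and Angptl7 fall below the curve in their highest clusters, as with Myoc in the Tnmd cluster at 45.9% and 63.8%.

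Myoc was called higher in 3 classes outside the stroma, and most of its UMIs there lay in a handful of cells. In pigmented epithelium Myoc was at 104 and 134 CPM, but 171 of its 180 UMIs in library 2 were in 1 cell and 91 of 94 in library 1 were in 3 cells. In melanocytes it was at 102 and 7.83 CPM, with 218 of the 272 UMIs of library 1 in 1 cell of 36509 UMIs, of which 4.96% were fibroblast markers, against 0.125% in all melanocytes; the 9 UMIs of library 2 were in 9 cells. In T or NK cells, 38 of 39 and 15 of 16 UMIs were each in 1 cell. The log2 fold changes of these classes were 2.37, 1.47 and 2.66 (edgeR adjusted p = 8.27e-05, 0.0200 and 0.00153). Without the single cells that held most of the UMIs, the values were 0.0084 in melanocytes and -1.77 in T or NK cells, neither called, and 1.63 in pigmented epithelium (edgeR adjusted p = 0.0130), where the 3 cells of library 1 stayed in. In some other classes the UMIs were spread more widely, as in rods of library 2, where 99 Myoc UMIs were in 53 cells with 25 in 1 of them. Bipolar cells, with 4.65 and 4.19 CPM, were the only class called lower (-2.93, edgeR adjusted p = 0.00455), a call that a mitochondrial limit of 15% ended (-2.45, adjusted p = 0.0597). The part of doublets or of free RNA in these values was not tested.

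Angptl7, a secreted angiopoietin-like protein of the anterior eye, shared 1 of the clusters of Myoc. It was at 657 and 613 CPM in the Tnmd cluster and at 221 and 237 CPM in the Mmp3 cluster. The Tmem100 cluster, second highest for Myoc, had 6.51 and 8.25 CPM (8 and 10 UMIs), and the Lypd1 cluster had 1.00 and 1.57 CPM (2 UMIs each). Mural cells had 0 UMIs in both libraries. The first pair of clusters thus lay far above the others in both libraries, with no overlap. Angptl7 was called higher in the Tnmd cluster (7.61, edgeR adjusted p = 1.16e-11), in the Mmp3 cluster (5.56, adjusted p = 1.70e-07) and in stroma against the other classes (7.63, adjusted p = 3.19e-15).

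A UMI of Angptl7 was found in 34.0% and 40.6% of Tnmd cluster cells, and in 0 of 57 and 0 of 66 T or NK cells, which allows up to 6.27% and 5.44% (95% Clopper-Pearson). Within the Tnmd cluster, thinned to 1000 UMIs, it was found in 35.4% and 27.9% of cells with a Myoc UMI, against 9.14% and 15.3% of cells without one. In the Mmp3 cluster the shares were 3.03% and 9.09% against 7.39% and 8.0%, with no common direction. Cells of 1 library are not replicates, so no test was made.

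**Figure D4:**
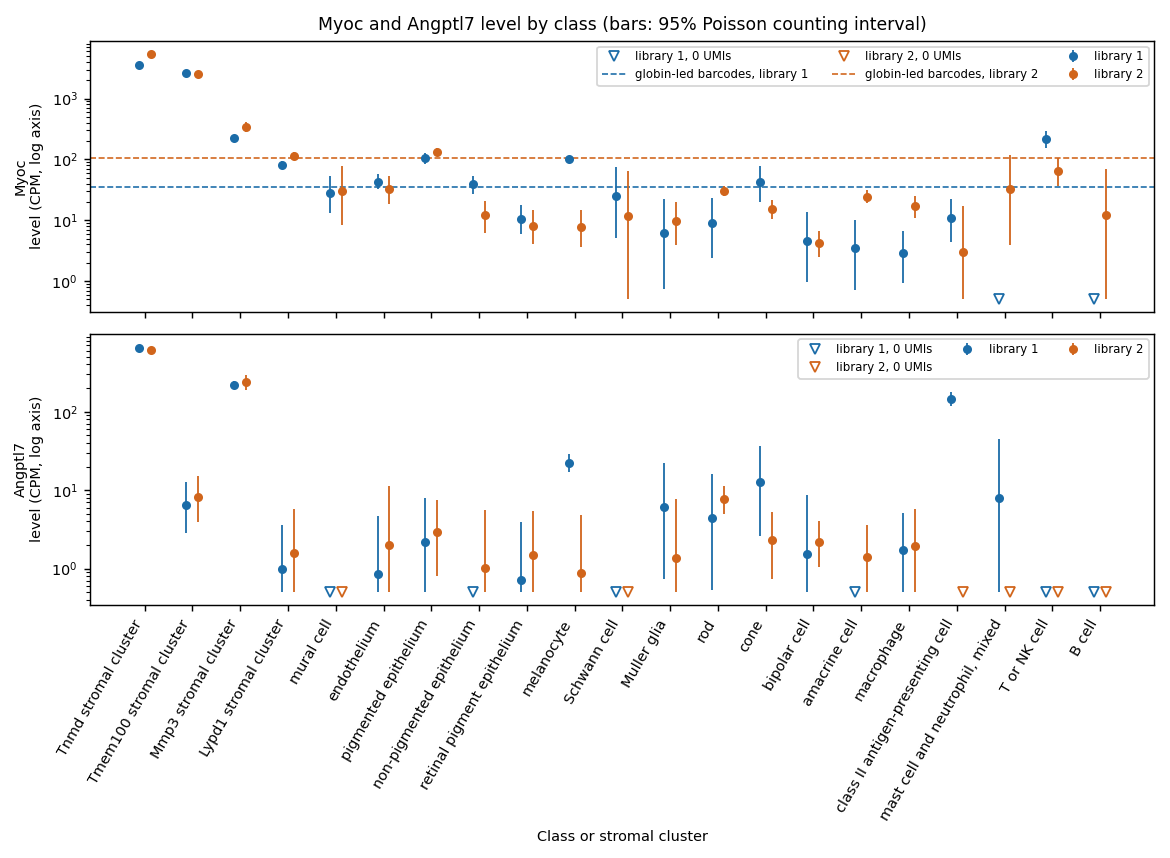
Level of Myoc (top) and Angptl7 (bottom) in each stromal cluster and class, in CPM on a log axis; points are libraries, bars 95% Poisson counting intervals (cut off at 0.5 CPM), open triangles 0 UMIs, and dashed lines the level in globin-led barcodes (Myoc only). Myoc is highest in the Tnmd and Tmem100 clusters and Angptl7 in the Tnmd and Mmp3 clusters, in both libraries.

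The calls of Angptl7 outside the stroma, in 2 classes, came down to single cells of library 1. In library 1, 92 of the 93 UMIs in class II antigen-presenting cells were in 1 cell, whose UMIs were 5.18% fibroblast markers against 0.336% in the class, and library 2 had 0. In melanocytes of library 1, 58 of 59 UMIs were in the same cell that held most Myoc, and library 2 had 1 UMI. Both classes were called higher (6.00 and 2.96, edgeR adjusted p = 1.83e-08 and 0.00774). Without those cells, Angptl7 was at 0.27 and -0.95, not called. In classes with no call the few UMIs were not all in single cells, as in rods of library 2, with 25 UMIs in 12 cells and 11 in 1 of them.

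Relatives of both proteins were looked at from lists made with earlier results of these data known. Of the olfactomedin family, 7 other genes were tested and 4 were called higher in stroma, where 20.8% of tested genes were, with a median log2 fold change of 3.54, where all tested genes had 0.29. They were Olfml3 (368 and 254 CPM in stroma), Olfml2b, Olfml1 and Olfml2a. Olfml3 was also higher in the Tnmd cluster (668 and 497 CPM; 2.55 ± 0.28, edgeR adjusted p = 3.47e-08). Of 4 other angiopoietin-like genes tested, Angptl1, Angptl2 and Angptl4 were higher in stroma, against the same 20.8%. Angptl1 stood at 108 and 72.6 CPM there (6.67 ± 0.38, edgeR adjusted p = 3.20e-14).

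Cyp1b1 encodes a cytochrome P450 that hydroxylates steroids and retinoids and is induced through the aryl hydrocarbon receptor. Among the stromal clusters it differed from Angptl7 in being low in the Tnmd cluster and higher in the Tmem100 and Lypd1 clusters. It was at 104 and 148 CPM in the Tmem100 cluster and at 90.1 and 156 CPM in the Lypd1 cluster, which overlapped each other. The Mmp3 cluster had 38.7 and 70.3 CPM, mural cells 28.3 and 38.5 CPM and the Tnmd cluster 7.45 and 17.5 CPM. It was higher in the Tmem100 cluster by 1.73 ± 0.30 and in the Lypd1 cluster by 1.48 ± 0.29 (edgeR adjusted p = 0.000241 and 0.00100), and lower in the Tnmd cluster by -2.37 ± 0.40 (adjusted p = 0.000107). Finer clustering ended both higher calls (0.88 and 0.65, edgeR adjusted p = 0.431 and 0.444). The Tnmd cluster was the lowest of the 5 in both libraries, below mural cells.

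Cyp1b1 was also a gene of pigmented epithelium and of Muller glia. It was at 109 and 69.0 CPM in pigmented epithelium, over 48 of 136 and 51 of 220 cells, and at 94.5 and 59.0 CPM in Muller glia. The median over the classes set against them was 6.24 and 7.10 CPM. Unlike Myoc, it was spread over many pigmented cells, and at most 10.1% of its UMIs there were in 1 cell. Cyp1b1 was higher in pigmented epithelium (4.24, edgeR adjusted p = 4.41e-10), stroma (4.11, adjusted p = 2.20e-11) and Muller glia (3.68, adjusted p = 8.59e-07). It was also called in mural cells (2.59), non-pigmented epithelium (2.13) and retinal pigment epithelium (1.93). The call in non-pigmented epithelium was lost with a mitochondrial limit of 15% (0.29), and that in retinal pigment epithelium with DESeq2 and without normalisation. In non-pigmented epithelium 33.3% and 32% of UMIs were in 1 cell, and the share thinned to 1000 UMIs was 0% in both libraries. In globin-led barcodes Cyp1b1 was at 34.8 CPM in library 1 (2 UMIs, interval 4.21 to 126) and had 0 UMIs in library 2 (up to 76.6 CPM). These intervals took in the levels of all the called classes, except stroma in library 2 (102 CPM). The part of free RNA in the Cyp1b1 levels was not tested. Macrophages (2.89 and 3.90 CPM) and T or NK cells (0 and 2 UMIs) had next to none. Of 6 genes of the aryl hydrocarbon receptor list tested, Nqo1, a quinone reductase, was higher and Por, the reductase that feeds electrons to P450 enzymes, was lower in pigmented over non-pigmented epithelium, where 2.48% of tested genes were higher and 4.43% lower. In the Tmem100 cluster Por was higher, where 2.42% of tested genes were.

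Cav1 and Cav2 encode the caveolins that form the coat of caveolae, the flask-shaped pits of the plasma membrane, where CAV2 needs CAV1 to leave the Golgi. Both were highest in endothelium. Cav1 was at 259 and 216 CPM in endothelium, 235 and 111 CPM in Muller glia, 207 and 116 CPM in mural cells and 127 and 113 CPM in melanocytes. Cav2 was at 267 and 153 CPM in endothelium, 154 and 129 CPM in melanocytes, 119 and 74.0 CPM in Muller glia and 110 and 54.0 CPM in mural cells. For both genes these 4 classes lay above every other fitted class in both libraries. The Muller glia cluster had Kdr and Flt1 among its leading genes, but the vascular endothelial list did not reach 3 markers there. It carried 8 of 8 Muller markers. Medians over the classes set against them were 7.96 and 11.0 CPM for Cav1 and 6.19 and 9.84 CPM for Cav2. Cav1 was higher by 4.50 in endothelium, 3.96 in mural cells, 3.79 in Muller glia and 3.77 in melanocytes, and Cav2 by 4.35, 2.98, 2.97 and 4.06 (largest edgeR adjusted p = 3.22e-06, for Cav2 in mural cells). Pigmented and non-pigmented epithelium had at most 8.84 CPM of either gene.

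Over 21 profiles, the log2 levels of Cav1 and Cav2 correlated at r = 0.85 in library 1 and 0.70 in library 2. By the lower of its values this was the highest of the 45 pairs among the 10 genes, although in library 2 Myoc and Angptl7 were higher, at 0.75. Profiles of 1 library share its depth and free RNA, so this is a description. The calls of Cav1 and Cav2 differed in the stroma, a difference that was not itself tested. Cav1 was higher in stroma than in the other classes (52.9 and 48.5 CPM; 2.40 ± 0.32, edgeR adjusted p = 2.63e-07), and Cav2 was not called (21.6 and 15.5 CPM). Within the stroma the Lypd1 cluster had 87.1 and 97.4 CPM of Cav1, and the Tmem100 cluster had 4.07 and 4.13 CPM, 5 UMIs in each library. Cav1 was lower in the Tmem100 cluster by -4.21 ± 0.52 (edgeR adjusted p = 9.79e-07) and Cav2 by -1.63 ± 0.41 (adjusted p = 0.0147; 0.275 with finer clustering). The Lypd1 call of Cav1 (1.16, edgeR adjusted p = 0.0202) was lost with DESeq2 (adjusted p = 0.141). In library 2, 32 of the 40 Cav1 UMIs of the Mmp3 cluster were in 1 cell.

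**Figure D5:**
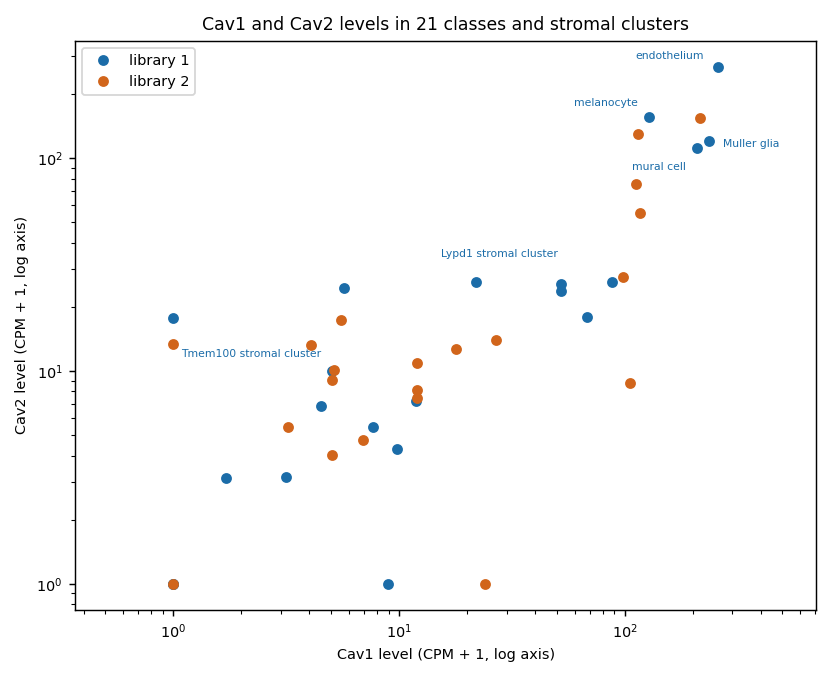
Level of Cav2 (vertical) against Cav1 (horizontal), both in CPM + 1 on log axes, with 1 point for each of 21 classes and stromal clusters in each library; names mark library 1. Endothelium, melanocytes, Muller glia and mural cells are high in both genes, and the Tmem100 cluster is low in both.

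Of 6 genes of the caveola list that were tested, 4 were higher in endothelium, with a median log2 fold change of 3.43, where 15.8% of tested genes were called and their median was 0.23. They were the cavins Sdpr (339 and 232 CPM; 6.96), Prkcdbp (3.63) and Ptrf (3.23), and Ehd2 (3.99), an ATPase at the neck of caveolae. In melanocytes the list gave 4 higher calls, where 16.9% of tested genes were called higher, with a median of 1.29, led by Pacsin3 (32.6 and 44.4 CPM; 2.38).

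Optn encodes optineurin, an autophagy receptor, and Tbk1 the kinase that phosphorylates it. Optn was highest in rods, at 154 and 125 CPM, ahead of all other classes in both libraries. Cones had 75.6 and 118 CPM, pigmented epithelium 97.3 and 68.3 CPM, melanocytes 83.5 and 86.1 CPM and retinal pigment epithelium 83.7 and 79.7 CPM. The last 4 overlapped. All 5 were called, by 2.03 ± 0.22 in rods, 1.81 in melanocytes, 1.81 in retinal pigment epithelium, 1.55 in pigmented epithelium and 1.55 in cones (largest edgeR adjusted p = 6.31e-06). The cone class also carried 9 of 9 rod markers. In globin-led barcodes Optn was at 69.5 and 145 CPM, from 4 and 7 UMIs. The counting intervals there (18.9 to 178 and 58.4 to 299 CPM) took in the levels of all 5 classes. The part of free RNA in the Optn levels was not tested. Class II antigen-presenting cells had 1.56 and 6.12 CPM of Optn, the lowest of the fitted classes in both libraries. Optn was lower there (-2.86 ± 0.62, edgeR adjusted p = 0.000621), in macrophages (-1.14, adjusted p = 0.00636; -0.98 with a mitochondrial limit of 15%) and in stroma (-1.07, adjusted p = 0.00164).

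Tbk1 was low everywhere. Its range over all classes and clusters with at least 20 cells was 0 to 39.8 CPM in library 1 and 9.08 to 35.0 CPM in library 2. Only retinal pigment epithelium was called (30.5 and 35.0 CPM; 1.02 ± 0.26, edgeR adjusted p = 0.00235), at the edge of the threshold, and the call was lost in 3 of the alternatives (0.73 to 0.97). The profile of Tbk1 correlated between the libraries at r = 0.49, that of Abca1 at 0.47 and that of Optn at 0.92. Of 17 autophagy receptors and partners of TBK1 tested, 2 were higher in rods and 3 lower. Tax1bp1, another autophagy receptor, was higher there (515 and 439 CPM; 1.06 ± 0.20, edgeR adjusted p = 7.70e-05), and Sqstm1, the receptor p62, was lower (31.2 and 42.7 CPM; -2.11 ± 0.29, adjusted p = 8.50e-07), as was Gabarap (-1.53). Calls over all genes in rods ran at 17.4% higher and 7.60% lower, and among the 10 genes Optn and Gas7 were higher and Tmco1 and Abca1 lower.

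Tmco1, which encodes a channel protein of the endoplasmic reticulum membrane that lets out calcium and sits at the translocon, was found in every fitted class. It was at 260 and 240 CPM in pigmented epithelium and at 259 and 228 CPM in melanocytes, against medians of 151 and 134 CPM over the other classes. Non-pigmented epithelium had 195 and 245 CPM and endothelium 243 and 169 CPM, neither called. Between pigmented and non-pigmented epithelium Tmco1 was not called. Rods had 37.9 and 68.9 CPM, cones 92.4 and 49.0 CPM and bipolar cells 88.3 and 67.0 CPM. Photoreceptors and bipolar cells thus stood below pigmented cells with no overlap. Tmco1 was higher in melanocytes (1.20) and pigmented epithelium (1.04), and lower in rods (-1.41), cones (-1.29), bipolar cells (-1.10) and the mixed mast cell and neutrophil class (-1.43, from 5 and 4 UMIs). The largest edgeR adjusted p was 0.0248, in the mixed class, and that call was lost with DESeq2 and with RLE normalisation (adjusted p = 0.168 and 0.0819). The melanocyte value fell just short of the fold threshold under other normalisations (0.98 to 0.99). Of 11 listed partners at the translocon and in calcium handling, 3 were higher in pigmented epithelium, where 17.3% of tested genes were, among them Asph (1.26 ± 0.21, edgeR adjusted p = 1.85e-05).

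Abca1 encodes the pump that loads cholesterol onto apolipoprotein A-I. It was at 86.0 and 60.5 CPM in macrophages, 85.2 and 55.8 CPM in retinal pigment epithelium, 76.3 and 60.1 CPM in pigmented epithelium, 66.7 and 62.7 CPM in melanocytes and 79.8 and 42.3 CPM in endothelium. These overlapped in the order of levels. All were called, with 2.07 ± 0.24 in macrophages (edgeR adjusted p = 1.44e-08) and 1.85 ± 0.25 in retinal pigment epithelium (adjusted p = 3.49e-07) the largest. In globin-led barcodes Abca1 was at 34.8 and 41.5 CPM, from 2 UMIs in each library. The counting intervals there (4.21 to 126 and 5.03 to 150 CPM) took in the levels of all these classes. The part of free RNA in the Abca1 levels was not tested. Class II antigen-presenting cells had 3.12 and 3.06 CPM, and Abca1 was lower there (-2.65 ± 0.70, edgeR adjusted p = 0.00476). Within the stroma Abca1 was higher in the Tmem100 cluster (62.6 and 74.3 CPM; 1.17, edgeR adjusted p = 0.0116), though not with finer or coarser clustering (0.81 and 0.78). Of 10 cholesterol efflux genes tested, 4 were higher in macrophages, among them Apoe (4.75), Pltp (3.04) and Npc2 (2.67), where 17.8% of tested genes were. In retinal pigment epithelium Pltp, a phospholipid transfer protein, stood at 526 and 632 CPM (5.00 ± 0.17, edgeR adjusted p = 3.41e-21), and Abcg1, the partner of ABCA1 in efflux to larger particles, was lower at 0.710 and 3.72 CPM (-2.31, adjusted p = 0.00912).

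Gas7 encodes a growth-arrest protein that binds actin and is best known from neurons. It was highest in Schwann cells, at 294 and 277 CPM, with a UMI in 21 of 42 and 15 of 32 cells and at most 12.5% of UMIs in 1 cell. Rods had 120 and 84.3 CPM, cones 58.8 and 86.2 CPM, non-pigmented epithelium 66.9 and 52.3 CPM and macrophages 49.1 and 56.6 CPM. Amacrine cells, which were not called, had 52.7 and 49.4 CPM. In globin-led barcodes Gas7 was at 69.5 and 41.5 CPM, from 4 and 2 UMIs. The counting intervals there (18.9 to 178 and 5.03 to 150 CPM) took in the levels of all these classes, but not those of Schwann cells. The part of free RNA in the Gas7 levels was not tested. Schwann cells stood above all others in both libraries. Gas7 was higher there by 3.63 ± 0.33 (edgeR adjusted p = 5.13e-10). It was also higher in rods (1.95), macrophages (1.70), cones (1.57) and non-pigmented epithelium (1.47), and lower in pigmented epithelium (-2.38), retinal pigment epithelium (-1.54), bipolar cells (-1.34) and endothelium (-1.25, edgeR adjusted p = 0.0329, the largest of these). The endothelial call was lost without normalisation (-1.17, edgeR adjusted p = 0.0529). As with Optn, the cone value comes from a class that carried 9 of 9 rod markers. Of 7 growth-arrest-specific and actin partner genes tested in Schwann cells, edgeR called 0 and had 1 at an unadjusted p under 0.05, and DESeq2 called 0 and had 3.

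Between pigmented epithelium, in which ciliary and iris cells cannot be told apart, and non-pigmented epithelium, 4 of the 10 genes were higher in the pigmented class and 1 was lower, where 2.48% and 4.43% of tested genes were. Cyp1b1 was at 109 and 69.0 CPM in pigmented and at 19.4 and 25.1 CPM in non-pigmented epithelium (1.99 ± 0.45, edgeR adjusted p = 0.00402). Abca1 was at 76.3 and 60.1 CPM in pigmented and at 24.8 and 19.1 CPM in non-pigmented epithelium (1.62 ± 0.40, edgeR adjusted p = 0.00761). Optn was at 97.3 and 68.3 CPM in pigmented and at 24.8 and 37.2 CPM in non-pigmented epithelium (1.43 ± 0.34, edgeR adjusted p = 0.00677). For each of these genes both pigmented values lay above both non-pigmented ones. Gas7 went the other way, with 2.21 and 6.68 CPM in pigmented and 66.9 and 52.3 CPM in non-pigmented epithelium (-3.64 ± 0.48, edgeR adjusted p = 3.08e-06). The fourth higher gene, Myoc, had 104 and 134 CPM in pigmented and 38.8 and 12.1 CPM in non-pigmented epithelium (2.27 ± 0.71, edgeR adjusted p = 0.0480). Its call rests on the 4 pigmented cells described above, and without the 1 that held 171 UMIs it was at 1.00 (edgeR adjusted p = 0.516). The call was also lost with RLE normalisation, with none, with DESeq2, without a library term, at both other clustering resolutions, under the mitochondrial limit of 15% and without high doublet scores (adjusted p = 0.0554 to 0.358). The median pigmented cell had 4868.5 and 3648 UMIs and the median non-pigmented cell 3301 and 2738.

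The comparison of pigmented over non-pigmented epithelium also covered 23 other genes tied to glaucoma or eye pressure. In it 4 were lower and the other 19 were not called, with a median of -0.45 where all tested genes had 0.02. The 4 were Ltbp2, a microfibril protein of congenital glaucoma, at 6.63 and 1.48 CPM in pigmented and 227 and 207 CPM in non-pigmented epithelium (-5.92 ± 0.60, edgeR adjusted p = 2.86e-08), the eye-field factor Six6 (-4.79), the collagen gene Col11a1 (-3.56) and the elastin crosslinker Loxl1 (-1.49). In stroma against the other classes 16 of the 23 were higher and 2 lower, where 20.8% and 1.91% of tested genes were, with a median of 2.91 where all tested genes had 0.29. The largest were Svep1 (6.91 ± 0.26), a matrix ligand of the TIE receptor system, Lmx1b (6.10), Ltbp2 (5.13) and Angpt1 (4.97), and Six6 and Pax6 were lower.

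They too were split among the stromal clusters, with 24 tested. In the Tnmd cluster, the highest for Myoc, 5 were higher and 2 lower, where 3.42% and 1.15% of tested genes were. Svep1 (245 and 191 CPM; 4.49), Ltbp2 (374 and 285 CPM; 3.82), Thbs1 (2100.2 and 2636 CPM; 2.62) and Loxl1 (1.73) were higher, and Efemp1 (-2.80) and Lmo7 (-1.48) were lower. In the Tmem100 cluster 5 were higher, where 2.42% of tested genes were, among them Efemp1 (182 and 164 CPM; 1.60), Col11a1 (1.59), Angpt1 (1.24) and Foxc1 (1.17). In the Lypd1 cluster 5 were higher and 2 lower, where 3.54% and 2.15% of tested genes were. Lmx1b (151 and 162 CPM; 2.22), Gmds (1.59), Lmo7 (1.56) and Foxc1 (1.33) were higher, and Thbs1 and Col11a1 lower. The largest edgeR adjusted p of these was 0.0411, for Lmo7 in the Tnmd cluster.

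Among 4978 genes, those with the profile most like that of each gene over the 21 profiles were found by Pearson r of log2 CPM, taking the lower of the libraries. For Myoc they were Itgbl1 (0.84), Tnmd (0.83) and Adamtsl3 (0.82), all highest in the Tnmd cluster. Tnmd gives that cluster its name and took part in forming it. For Angptl7 they were Fam180a (0.81), Aldh3a1 (0.81) and Mmp3 (0.80). For Cyp1b1 they were Heph (0.85), Fgfr1 (0.82) and Ddr2 (0.78). Cav1 was most like Plat (0.79), Cmbl and Abcg2, and Cav2 most like Ednrb (0.74), Crnde and Mkl2. Optn was most like Aldoa (0.81), Btbd10 and Chchd10, and Tmco1 most like Eci2 (0.84), Dhrs4 and Idh2. The closest genes were Decr1 (0.79) for Abca1, with lower values for Gas7 (Tub, 0.64) and Tbk1 (Atp6v1b2, 0.63). Myoc and Angptl7 themselves correlated at 0.46 in library 1 and 0.75 in library 2.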

How the data were processed

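The submitters deposited, per library, raw UMI counts per gene and barcode; per the file headers, Cell Ranger 3.1.0 wrote the matrices. Each library's counts were deposited in 2 matrices that differed in 0 entries. The submitters' processing notes name CASAVA 1.8, Cell Ranger, Seurat, mm10 and GRCm38 and give no roles. The annotation release and the use of strand are not given in the sources used here. All deposited barcodes had at least 500 UMIs. Of 4764 and 6220 barcodes, cells passed with 500 or more genes and no more than 30% of UMIs from mitochondrial genes. Genes were split at random (seed 1): the markers went to the clustering set, the 10 genes and all lists to a held-out set. The clustering set (2000 variable genes, 30 components, 15 neighbours, Leiden resolution 1, scanpy 1.11.5) gave the clusters. A marker counted where its mean reached 0.5 per 10000 UMIs and also 4 times its median over other clusters. At least 5 of the fibroblast markers made a cluster stromal; otherwise the type with most markers among the 10 leading genes gave the name. This rule was written after marker levels had been seen. A rod cluster (13 and 152 cells) with over 3 times the UMIs of its class, ganglion cells and red cells were not fitted.

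Counts were summed per class and library and fitted on class plus library (edgeR 4.0.16, R 4.3.3, TMM, quasi-likelihood F test with Benjamini-Hochberg adjustment over 6701 held-out genes for 18 classes and 7014 for the stromal clusters with all other classes, 17 and 20 residual degrees of freedom). The 2 libraries are pools that may differ only technically, and p-values measure the spread between their class sums. Standard errors are the fold change over the square root of F. All 10 genes passed the filter. Of the identifiers, 32655 of 33456 were found in GENCODE M21; 9 of the 10 genes had an entry in the RefSeq promoter table. The genes and lists were chosen with earlier results of these data known. All 10 genes are named; of a list, up to 4 called genes per direction with the largest fold change, one direction in each library and 50 or more UMIs on the higher side in both; for likeness, the 3 closest genes per gene, without members, predicted, RIKEN, mitochondrial or ribosomal genes. Intervals are exact (95%); the floor is 3 counts. The alternatives were other normalisations, no filter, DESeq2 1.42.0, no library term, other clustering resolutions, a 15% mitochondrial limit, removal of high doublet scores, 1 library at a time and, added after seeing the data, removal of a cell with over 50% of a gene's UMIs in its class (and at least 10). The fit was tested on simulated counts, where it made more false calls in stroma than its threshold allows and missed most of the smaller planted changes, above all between pigmented and non-pigmented epithelium.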

Additional observations from a re-analysis of the deposited data

How the results depend on the processing

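Of 77 calls of the 10 genes over all comparisons, 50 were kept under every alternative that gave a test and 27 were lost under at least 1. Over 180 pairs of a gene and a class, the higher calls numbered 36 to 43 (main 41) and the lower ones 12 to 22 (main 15, 22 with DESeq2); over the stromal clusters they numbered 8 to 11 (main 11) and 4 to 7 (main 5), and between pigmented and non-pigmented epithelium 3 or 4 (main 4) and 1. The edgeR fits share 1 weakness: a class with 0 UMIs in both libraries blocks lower calls of that gene, as happened to Gas7 when high doublet scores were left out. Another normalisation moved the median log2 fold change of all tested genes by -0.22 (macrophages) to 0.31 (B cells) with RLE and by -0.54 (class II antigen-presenting cells) to 0.39 (amacrine cells) with none.

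Reversals touched calls that rest on single cells or small classes. Angptl7 in class II antigen-presenting cells was at -1.26 without replicate 1 (library 1) and 4.94 without replicate 2. In melanocytes Myoc was at -1.51 and 2.36 and Angptl7 at -0.52 and 2.16 in the same order, and without the highest 5% of doublet scores they were at -0.92 and -0.71; without dominant cells Angptl7 was at -0.95. Myoc in T or NK cells was at -1.77 without dominant cells, and in mural cells at 1.17 at resolution 2. The cause was not tested. Single libraries give no test. Thinned to 1000 UMIs, the share of Tnmd cluster cells with Myoc was 45.9% and 63.8%, against 62.5% and 72.4% unthinned, and with Angptl7 21.2% and 23.3%, against 34.0% and 40.6%; thinned to 1500 UMIs, Myoc in library 1 was at 50.3% and Angptl7 at 23.7% and 28.5%. Depth limits Tbk1 and all genes in B cells and mast cells. The fit pairs the classes within each library; without library as a replicate block, the calls were 41 higher and 15 lower by class, 8 and 4 by stromal cluster, and 3 and 1 between pigmented and non-pigmented epithelium.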

Other observations

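Retinal ganglion cells, the neurons lost in glaucoma, were too few to be fitted (16 cells in library 1 and 57 in library 2) and their values are given without a test. Tmco1 was at 399.5 CPM (95% Poisson interval 327 to 483, counting error only) and 313 CPM (284 to 345) there, above each of the fitted classes in both libraries. Optn was at 14.9 and 48.3 CPM and Tbk1 at 22.4 and 30.9 CPM, both from few UMIs in library 1 (4 and 6). Myoc had 0 and 3 UMIs, Angptl7 0 and 1, Cyp1b1 0 and 4 and Cav1 0 and 10.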
